A study of Homo sapiens with 8 samples.

Results

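The genes described are the cyclins and the cyclin-dependent kinases (CDKs) that drive the cell division cycle: the D-type cyclins CCND1, CCND2 and CCND3, the E-type cyclins CCNE1 and CCNE2 with their kinase CDK2, the A-type cyclin CCNA2, and the B-type cyclins CCNB1 and CCNB2 with their kinase CDK1. They were found by gene symbol, and all 10 were among the 60230 genes of the count table. Of these, 9 passed the filter on low counts together with 13404 genes in all, and CCND2 did not. RNA was sequenced from HepG2 cells, a human hepatocellular carcinoma line, that overexpress the drug-metabolising cytochrome CYP3A4 and were kept in medium with blasticidin. Cells were exposed for 24 h to compound 4, compound 5 or compound 6, each at its own IC50 (a concentration set by its own effect on viability), and control cells received 0.2% DMSO. Each of the 4 groups had 2 replicates, which the labels give as a time, day 1 and day 2. They do not say whether the samples of a group also differed in the length of exposure, so day serves here only as the replicate number. Nothing in the labels says that the replicates came from separate cultures, so the p-values measure the spread between these samples, which may be technical.

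The 3 compounds are related bisphenol antioxidants used with plastics. Compounds 4 and 6 have the same methylene bridge between a pair of methyl-substituted phenol rings and differ in the bulky group on each ring, which is tert-butyl in compound 4 and cyclohexyl in compound 6. Compound 5 has an ethylidene bridge in place of methylene, and its rings carry tert-butyl groups and no methyl group. The stated exposure time was the same, but the concentrations were not, because each compound was given at its own IC50.

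Cyclins are the regulatory subunits that switch CDKs on, and they are named for the phase in which they act. In the textbook order, D-type cyclins act with CDK4 and CDK6 in G1, E-type cyclins act with CDK2 at the entry into S phase, cyclin A acts with CDK2 and CDK1 in S and G2, and cyclin B acts with CDK1 at the entry into mitosis. Most hepatocytes of an adult liver rest outside the cycle, whereas HepG2 cells divide in culture. In bulk RNA, fewer cells in a phase and less RNA per cell in that phase cannot be told apart.

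Promoter sequences are shown for the 4 genes that fell with all 3 compounds and for CCNE1, which did not pass the test with TMM scaling (the scaling used for all main values), because B-type cyclin and CDK1 promoters are known for the letters of the CHR element (cell cycle genes homology region) and of the CCAAT box. Each line gives the 170 bases before a RefSeq transcription start on GRCh38.p14, 5′ to 3′ on the strand of the gene, and capitals mark the searched motifs, with ATTGG as the reverse-strand form of CCAAT.
CCNB1, chr5:69166980-69167149, plus strand: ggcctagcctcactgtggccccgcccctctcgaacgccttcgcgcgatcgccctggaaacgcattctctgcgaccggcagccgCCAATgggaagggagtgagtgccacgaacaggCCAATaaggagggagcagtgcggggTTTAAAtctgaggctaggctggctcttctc
CCNB2, chr15:59104976-59105145, plus strand: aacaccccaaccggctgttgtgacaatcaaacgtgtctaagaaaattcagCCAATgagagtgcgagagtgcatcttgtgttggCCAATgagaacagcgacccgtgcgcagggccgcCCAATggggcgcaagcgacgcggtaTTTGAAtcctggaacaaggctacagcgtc
CDK1, first start, chr10:60778161-60778330, plus strand: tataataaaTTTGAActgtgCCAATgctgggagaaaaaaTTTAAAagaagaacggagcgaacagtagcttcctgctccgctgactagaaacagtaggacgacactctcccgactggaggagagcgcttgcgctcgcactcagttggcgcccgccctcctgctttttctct
CCNA2, chr4:121823884-121824053, minus strand: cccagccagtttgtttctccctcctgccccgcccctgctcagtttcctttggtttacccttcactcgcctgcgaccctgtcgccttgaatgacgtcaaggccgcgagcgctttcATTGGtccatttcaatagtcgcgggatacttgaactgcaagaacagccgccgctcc
CCNE1, chr19:29811821-29811990, plus strand: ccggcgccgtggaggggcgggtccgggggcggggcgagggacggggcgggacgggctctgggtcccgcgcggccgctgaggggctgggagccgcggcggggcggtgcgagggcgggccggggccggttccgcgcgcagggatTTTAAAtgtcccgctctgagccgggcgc

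The search covered, on both strands, the CHR letters TTTGAA and TTTAAA, the CCAAT box, and the E2F letters TTTGGCGC, TTTCGCGC, TTTCCCGC and TTTGCCGC, in windows of 300 bases (250 before and 50 after each start). Windows from the promoter table used here matched 6 of the 10 genes, and those of CCND1, CCND2, CCNE2 and CDK2 were not analysed here. The promoters of CCNB1 and CCNB2 had the same layout near the start. In CCNB1, CCAAT boxes stood at -87 and -55, 32 bases apart, and TTTAAA stood at -30. In CCNB2, the CCAAT boxes nearest the start stood at -120, -87 and -54, 33 bases apart each, and TTTGAA stood at -29, with a further CCAAT at -244 and a TTTAAA at -193. In both genes the CHR letters began 25 bases after the first base of the last CCAAT box. At the first CDK1 start, TTTGAA stood at -161, CCAAT at -150, TTTAAA at -131 and the E2F letters TTTCGCGC at 20. At the second CDK1 start, reverse-strand CCAAT boxes stood at -78 and -46, 32 bases apart, with TTTGAA at -69 and -13 and on the reverse strand at 10, and the same E2F letters at -128. CCNA2 held a single reverse-strand CCAAT at -56 and neither searched form of the CHR letters. Other forms of the CHR element were not searched, so this does not show that CCNA2 lacks one. CCNE1 held TTTAAA at -28 and no CCAAT, and CCND3 held CCAAT in 2 of its windows. For comparison, among 34796 promoter windows of this length, 34.6% held CCAAT, 10.8% held it at least 2 times, 24% held either CHR form, 9.29% held a CHR form and CCAAT, and 3.3% held any of the E2F letters. These matches describe letters only.

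All 10 genes are annotated as protein-coding on GRCh38. CCND1 (ENSG00000110092) lies on chromosome 11 from 69641087 to 69654474, CCND2 (ENSG00000118971) on chromosome 12 from 4273772 to 4305350, and CCND3 (ENSG00000112576) on chromosome 6 from 41934933 to 42050357. CCNE1 (ENSG00000105173) lies on chromosome 19 from 29811898 to 29824308, CCNE2 (ENSG00000175305) on chromosome 8 from 94879770 to 94896678, and CDK2 (ENSG00000123374) on chromosome 12 from 55966769 to 55972784. CCNA2 (ENSG00000145386) lies on chromosome 4 from 121816444 to 121823933 and CCNB1 (ENSG00000134057) on chromosome 5 from 69167010 to 69178245. CCNB2 (ENSG00000157456) lies on chromosome 15 from 59105078 to 59125045, and CDK1 (ENSG00000170312) on chromosome 10 from 60778331 to 60794852. The kinase and cyclin genes are thus spread over 9 chromosomes, and only CCND2 and CDK2 share one. Exon sequence shared with another gene was counted as 31-base words on either strand. It was 36.0% for CCNE2, whose exons overlap INTS8 on the opposite strand, and 13.5% each for CCND2 and CDK2. It was 9.23% for CCND1, 8.02% for CCNA2, 3.08% for CCNB2, which has the pseudogene CCNB2P1, 1.21% for CCND3, and 0 for CCNE1, CCNB1 and CDK1.

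The libraries held between 9472261 and 13308975 counts, so that 3 counts equalled 0.234 to 0.313 CPM (counts scaled to a common library total), and mitochondrial genes took 4.91 and 5.12% in DMSO and 5.31 to 6.22% with the compounds, which did not overlap. Levels are given as CPM scaled by TMM factors, which lay between 0.958 and 1.04. CYP3A4 itself was detected in every library, at 198.1 and 206.5 CPM in DMSO and at 287.2 and 215.6 CPM in the compound 4 libraries. It was higher in the compound 5 libraries, at 370.8 and 420.9 CPM, and lower in those of compound 6, at 170.5 CPM in each. All 10 hepatocyte markers were detected in every library, with a summed level of 39810 to 41640 CPM in the controls and 31190 to 38160 CPM with the compounds. Of 6 leukocyte markers, 3 (PTPRC, CD3E and ITGAM) were at 0 everywhere, and the summed level was 30.1 to 42.1 CPM in DMSO and 37.8 to 61.3 CPM with the compounds. Among the other 3, CD68 rose with compound 4 (log2 fold change 0.80), and CD14 was called higher with compounds 4 and 6 from 1 and 2 counts in DMSO to 9 to 16 counts in those libraries. The 4 endothelial markers summed to at most 2.06 CPM, and of 6 fibroblast and stellate cell markers all but PDGFRB had 3 counts or fewer in every library. PDGFRB had 27 and 20 counts in DMSO, 100 and 81 in the compound 4 libraries, 50 and 34 in those of compound 5 and 36 and 66 in those of compound 6. PDGFRB rose with compound 4 (log2 fold change 1.80, edgeR adjusted p = 0.00864). The part of these marker levels, of CYP3A4 and of the mitochondrial share in the results below was not tested.

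**Figure D1:**
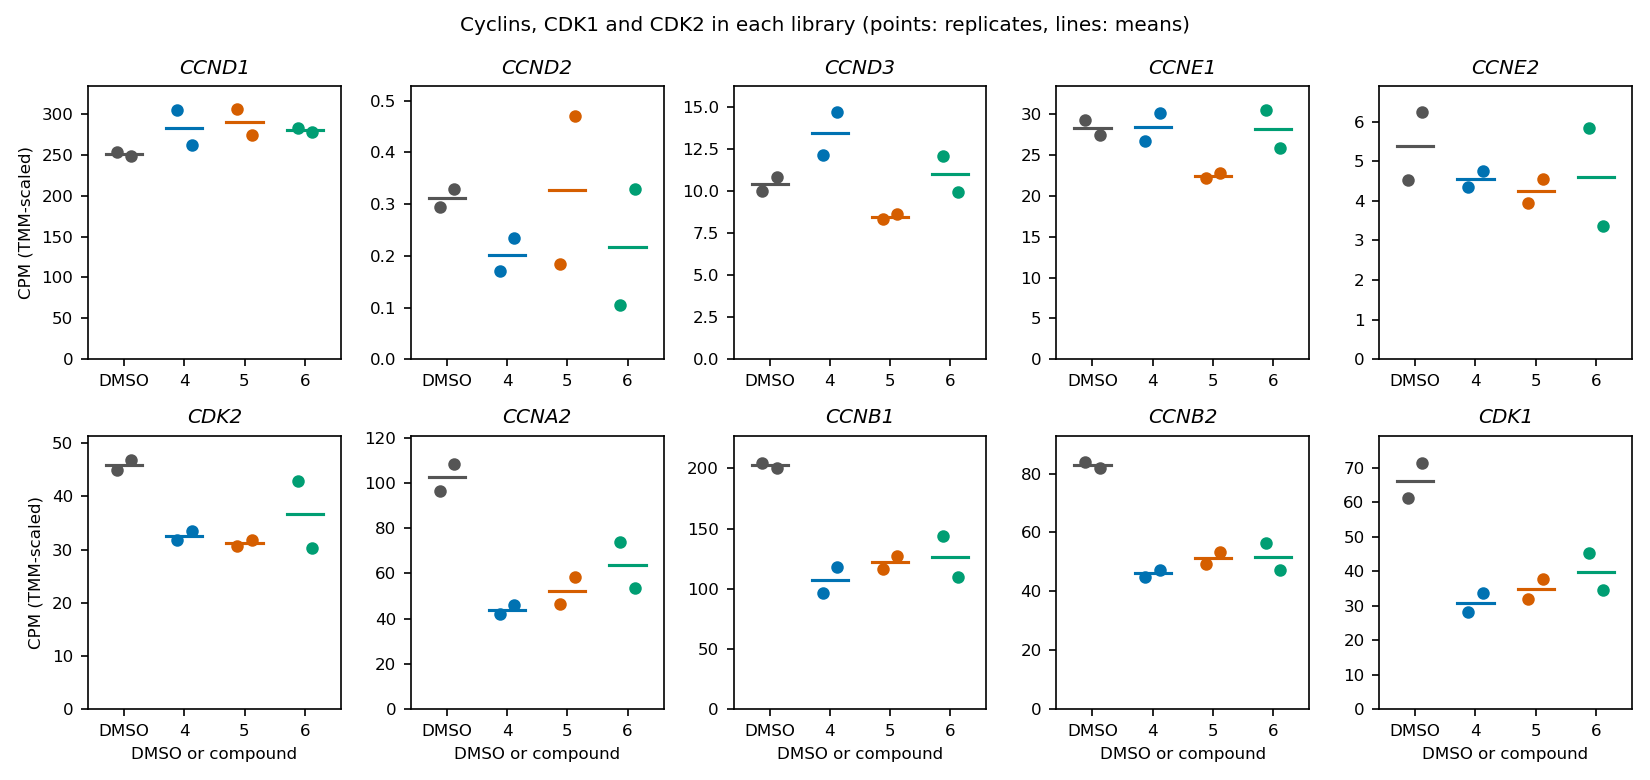
TMM-scaled CPM (linear axis from 0, a separate scale for each gene) of the 10 genes by group, with a point for each replicate and a line at the group mean. For CCNA2, CCNB1, CCNB2 and CDK1 all 6 treated libraries lay below both DMSO libraries, whereas CCND1 lay slightly above DMSO and CCND2 stayed under 0.5 CPM.

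Each compound was compared with DMSO to ask which cell cycle regulators the exposure changed. The cyclins of S, G2 and M phase and CDK1 fell with every compound. Of the G1 and G1/S cyclins, CCND1, CCND3, CCNE1 and CCNE2 were tested, and none passed. So few genes without a call do not set this group apart, given the shares of all tested genes below. With compound 6, the confidence interval of CCNE2 (log2 fold change -0.89 to 0.39) included the -0.68 of CCNB1. Those of CCND1, CCND3 and CCNE1 had lower ends of -0.08, -0.31 and -0.30 and did not. A difference between the phase groups was not tested. With compound 4, 4 of the 9 tested genes fell (CCNA2, CCNB1, CCNB2 and CDK1) and none rose, where 5.42% of all tested genes fell and 6.5% rose. With compound 5, 5 fell (the same 4 and CDK2) and none rose, against 14.2% and 13.9% of all genes. With compound 6, CCNA2, CCNB1, CCNB2 and CDK1 fell and none rose, against 1.6% and 2.8% of all genes. The calls were made with edgeR's quasi-likelihood test at a Benjamini-Hochberg adjusted p under 0.05 over all tested genes. For compounds 4, 5 and 6 the median log2 fold change of the 9 genes was -0.49, -0.55 and -0.33, whereas that of all tested genes was 9.877e-05, -0.03 and 0.00. With DESeq2, and at an unadjusted p under 0.05, no gene of the 9 rose either. The 3 comparisons share the DMSO samples and are not independent of each other. For compound 5, 3 of the 5 were called without compound 5 replicate 1. For compound 6 the calls rested on few libraries: none of the 4 remained without DMSO replicate 1, without DMSO replicate 2 or without compound 6 replicate 2, and 2 remained without compound 5 replicate 1.

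**Figure D2:**
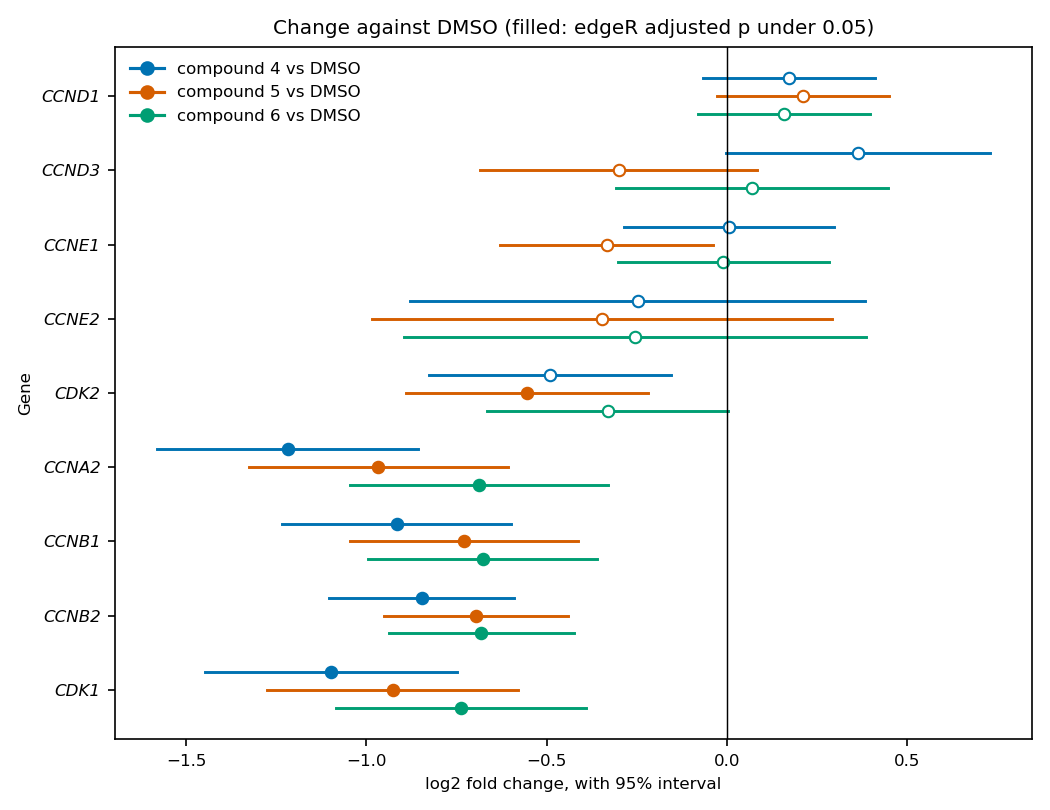
log2 fold change against DMSO for the 9 tested genes, with 95% intervals, for compounds 4, 5 and 6. Filled points mark an edgeR adjusted p under 0.05, and they fall on CCNA2, CCNB1, CCNB2 and CDK1 for all 3 compounds and on CDK2 for compound 5.

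CCND1 encodes cyclin D1, the growth factor-responsive partner of CDK4 and CDK6. Its level was 253 and 248 CPM in the DMSO samples, 304 and 262 CPM in the compound 4 libraries, 306 and 274 CPM in the compound 5 libraries, and 282 and 278 CPM in the compound 6 libraries. All 6 treated libraries lay above both DMSO libraries, but the difference did not pass the test with any compound. The log2 fold changes were 0.17 (95% interval -0.06 to 0.41, edgeR adjusted p = 0.341) with compound 4, 0.21 (-0.03 to 0.45, adjusted p = 0.166) with compound 5, and 0.16 (-0.08 to 0.40, adjusted p = 0.453) with compound 6. By these intervals a rise above 0.45 on the log2 scale was outside the range for each compound.

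CCND3 encodes cyclin D3, a further partner of CDK4 and CDK6, and was measured at a much lower level. Its CPM was 10.0 and 10.8 in DMSO, 12.1 and 14.7 in the compound 4 libraries, 8.34 and 8.64 in the compound 5 libraries, and 12.1 and 9.96 in the compound 6 libraries. The samples of compound 4 lay above DMSO, those of compound 5 lay below, and those of compound 6 overlapped it. None of the log2 fold changes passed the test: 0.36 (edgeR adjusted p = 0.190), -0.30 (adjusted p = 0.217) and 0.07 (adjusted p = 0.869) in that order. CCND2, the third D-type cyclin, had 1 to 6 counts in each library, or 0.104 to 0.471 CPM. At this depth no difference in CCND2 was detectable.

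CCNE1 and CCNE2 encode the E-type cyclins, which activate CDK2 at the start of DNA replication. CCNE1 had 29.2 and 27.5 CPM in DMSO, 26.7 and 30.2 CPM in the compound 4 libraries, 22.2 and 22.8 CPM in the compound 5 libraries, and 30.5 and 25.9 CPM in the compound 6 libraries. Only the samples of compound 5 lay apart from DMSO, on the lower side. The log2 fold change was 0.01 (95% interval -0.28 to 0.30, edgeR adjusted p = 0.984) with compound 4, -0.33 (-0.63 to -0.04, adjusted p = 0.0848) with compound 5, and -0.01 (-0.30 to 0.28, adjusted p = 0.981) with compound 6. For compound 5 this p crossed the threshold under other scalings, at 0.0410 with upper-quartile factors and 0.0299 with library size alone. CCNE2 was low, at 4.53 and 6.25 CPM in DMSO and 3.38 to 5.84 CPM in the 6 treated libraries. Its groups overlapped in each comparison, and its standard error of about 0.29 left the fold change undetermined.

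CDK2, the catalytic partner of cyclins E and A, had 45.0 and 46.8 CPM in DMSO and lower levels in every treated library. It was measured at 31.8 and 33.5 CPM in the compound 4 libraries, at 30.6 and 31.9 CPM in the compound 5 libraries, and at 43.0 and 30.3 CPM in the compound 6 libraries. The replicates of compound 6 stood far apart, with the first near DMSO and the second near the other compounds. CDK2 fell with compound 5 (log2 fold change -0.55, SE 0.15, edgeR adjusted p = 0.0212), a call that was lost without either DMSO replicate or either compound 5 replicate (adjusted p = 0.0819 to 0.127). With compound 4 the value was -0.49 (SE 0.15, adjusted p = 0.0600), and it passed in 6 of the 12 alternative fits that kept all DMSO and compound 4 libraries, at adjusted p = 0.0133 to 0.0481. With compound 6 it was -0.33 (SE 0.15, adjusted p = 0.257). This value rested on single libraries, since it was -0.57 and passed without compound 6 replicate 1 (adjusted p = 0.0362) and was -0.0867 without compound 6 replicate 2 (adjusted p = 0.884).

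CCNA2 encodes cyclin A2, the cyclin of S phase and G2, and it was the gene of the 9 with the lowest fold change for compounds 4 and 5. It stood at 96.3 and 108 CPM in DMSO, at 41.9 and 46.1 CPM in the compound 4 libraries, at 46.4 and 58.3 CPM in the compound 5 libraries, and at 73.9 and 53.6 CPM in the compound 6 libraries. No treated library reached the lower DMSO library. CCNA2 fell by 1.22 on the log2 scale with compound 4 (2.33-fold, SE 0.16, edgeR adjusted p = 0.00159) and by 0.97 with compound 5 (1.95-fold, SE 0.16, adjusted p = 0.00198). With compound 6 it fell by 0.69 (1.61-fold, SE 0.16, adjusted p = 0.0403), and with a replicate block in the fit this adjusted p became 0.0604 and the call was lost. The call also depended on single libraries, and the log2 fold change lay between -0.91 and -0.46 with 1 library left out.

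CCNB1 and CCNB2 encode the B-type cyclins, which bring CDK1 to activity at the onset of mitosis. CCNB1 had 205 and 200 CPM in DMSO, 96.4 and 118 CPM in the compound 4 libraries, 117 and 128 CPM in the compound 5 libraries, and 144 and 110 CPM in the compound 6 libraries. CCNB2 had 84.0 and 81.9 CPM in DMSO, 45.0 and 47.3 CPM in the compound 4 libraries, 49.1 and 53.2 CPM in the compound 5 libraries, and 56.5 and 47.1 CPM in the compound 6 libraries. For both genes all treated libraries thus lay below all control libraries, as they also did for CCNA2 and CDK1. A link to the promoter letters printed above was not tested. CCNB1 fell by 0.92 (SE 0.14, edgeR adjusted p = 0.00306), 0.73 (SE 0.14, adjusted p = 0.00434) and 0.68 (SE 0.14, adjusted p = 0.0286) on the log2 scale with compounds 4, 5 and 6. CCNB2 fell by 0.85 (SE 0.12, adjusted p = 0.00171), 0.70 (SE 0.12, adjusted p = 0.00186) and 0.68 (SE 0.12, adjusted p = 0.0123). CCNB2 had the smallest standard error of the falling genes. For CCNB1 with compound 5, the adjusted p was 0.0530 without compound 5 replicate 1.

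CDK1, the kinase of mitotic entry, followed the same order of groups. It had 61.1 and 71.3 CPM in DMSO, 28.3 and 33.5 CPM in the compound 4 libraries, 31.9 and 37.7 CPM in the compound 5 libraries, and 45.3 and 34.5 CPM in the compound 6 libraries. Every treated library was below both DMSO libraries. CDK1 fell by 1.10 (2.14-fold, SE 0.16, edgeR adjusted p = 0.00203) with compound 4, by 0.93 (1.90-fold, SE 0.16, adjusted p = 0.00208) with compound 5, and by 0.74 (1.67-fold, SE 0.16, adjusted p = 0.0289) with compound 6 on the log2 scale. For compound 6, replicate 1 had the higher level of CDK2, CCNA2, CCNB1, CCNB2 and CDK1, by 0.26 to 0.50 on the log2 scale, whereas in the other groups replicate 2 was mostly the higher.

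Counting libraries rather than calls, the samples did not overlap on the lower side for 5 of the 9 genes with compound 4, 7 with compound 5 and 5 with compound 6. The same held for 27.1%, 37.3% and 26.6% of all tested genes. On the higher side it was 2 with compound 4 (CCND1 and CCND3) and 1 each with compounds 5 and 6 (CCND1), where 27.5%, 32.9% and 26.3% of all tested genes lay apart.

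Levels per length allow the genes to be ordered within a group, on the scale of CPM per kilobase of the median coding transcript. In DMSO, CCNB1 was highest at a mean of 170.3, followed by CCND1 at 103.3, CCNB2 at 53.3, CCNA2 and CDK1 at 36.6 each, CDK2 at 30.7, CCNE1 at 17.3, CCND3 at 6.06, CCNE2 at 2.64 and CCND2 at 0.0890. On this scale the neighbours CCNA2 and CDK1 did not separate, since their replicates overlapped, and the others did not overlap. In the treated groups the top pair changed places. CCND1 was at 116.5, 119.5 and 115.4 per kilobase with compounds 4, 5 and 6, and CCNB1 at 90.2, 102.6 and 106.6. Their samples overlapped with compound 6 and not with compounds 4 and 5. The order depended on the length used. With the length of all exons together in place of the median transcript, the DMSO means were 79.2 for CCNB1, 51.95 for CCND1, 36.6 for CCNA2, 29.6 for CCNB2 and 16.8 for CDK1. On that scale CCNA2 stood above CCNB2, and its 34.4 and 38.8 in DMSO did not overlap the 15.6 and 18.1 of CDK1.

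Ratios within a library need no scaling between libraries. CCNB1 had 0.809 and 0.807 counts for each count of CCND1 in DMSO, 0.317 and 0.453 in the compound 4 libraries, 0.381 and 0.465 in the compound 5 libraries, and 0.510 and 0.394 in the compound 6 libraries. The ratio of CCNA2 to CCND1 was 0.380 and 0.437 in DMSO and 0.138 to 0.262 in the treated libraries. Both ratios of a later to an earlier cyclin were thus lower in each treated library than in both controls. The ratio of the kinases CDK1 to CDK2 was 1.36 and 1.52 in DMSO and 0.890 to 1.18 with the compounds, which also did not overlap. By contrast, the ratio of CCNB1 to CCNB2 was 2.44 and 2.45 in DMSO and 2.14 to 2.55 with the compounds, which overlapped.

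**Figure D3:**
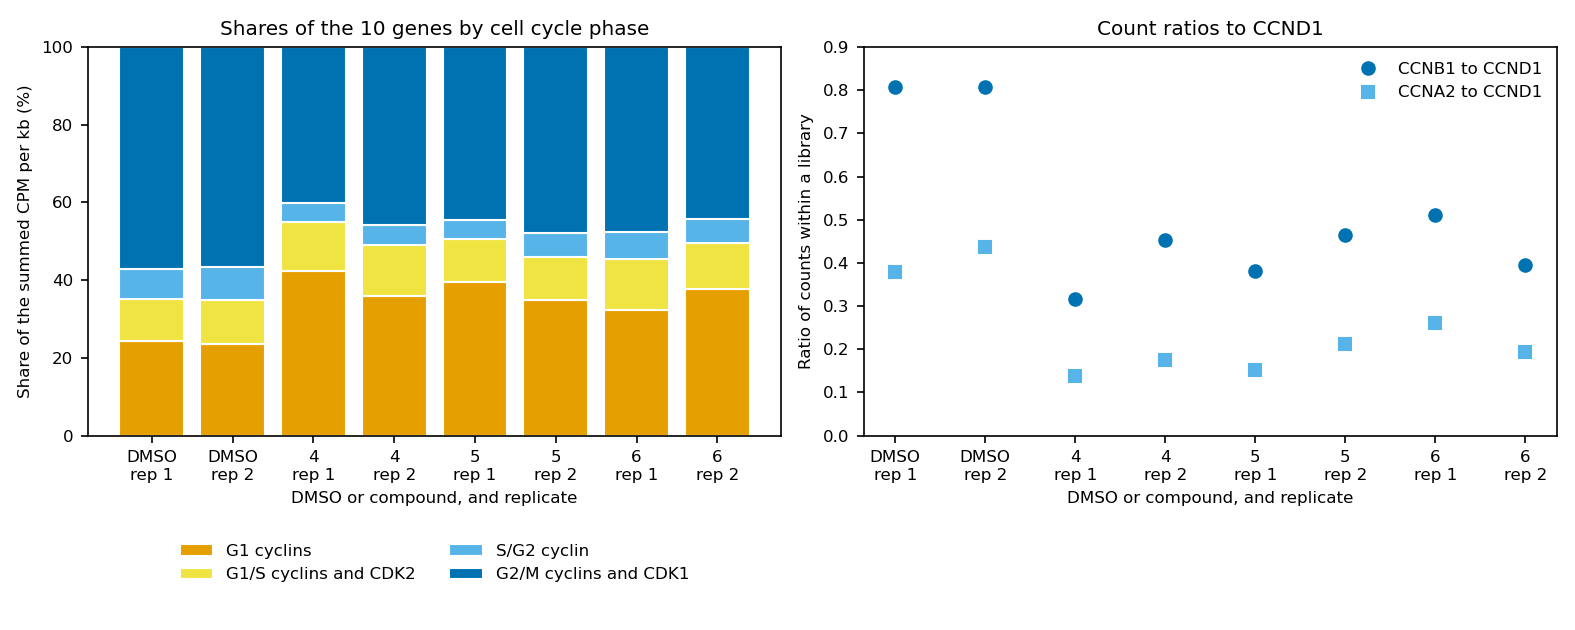
Left, share in percent of the summed CPM per kilobase of the 10 genes that each phase group took in each library; right, count ratios of CCNB1 and of CCNA2 to CCND1 in each library, both on linear axes from 0. The G2/M share was above 56% in both DMSO libraries and below 48% in all 6 treated libraries, and both ratios were highest in DMSO.

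Summed over the 10 genes, the level per kilobase was 454.7 and 459 in DMSO and 312.6 to 382.1 in the treated libraries. The G2/M group (CCNB1, CCNB2 and CDK1) took 57.2% and 56.7% of this sum in the DMSO libraries, 40.2% and 45.8% in those of compound 4, 44.5% and 47.9% in those of compound 5, and 47.7% and 44.4% in those of compound 6. The G1 group (CCND1, CCND2 and CCND3) took 24.2% and 23.7% in DMSO and 32.2 to 42.3% in the treated libraries. Shares of one sum move against each other, so a lower G2/M share and a higher G1 share are a single observation. CCNA2 alone took 7.57% and 8.45% in DMSO and 4.79 to 6.92% with the compounds.

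The compounds were also compared with each other, to ask whether the change of bulky group or bridge went with a different level of these genes. The comparison holds at matched time and not at matched concentration. It covered 3 pairs of compounds, and p-values were adjusted over all genes of each pair. Between compounds 4 and 6, which differ in tert-butyl against cyclohexyl, none of the 9 genes passed the edgeR test and none passed with DESeq2. Of all tested genes, 0.0448% were called at an edgeR adjusted p under 0.05. At an unadjusted p under 0.05 there were 2 of the 9, CCNA2 and CDK1, and the share of all genes at that threshold was not counted. CCNA2 was lower with compound 4 by a log2 difference of -0.53 (95% interval -0.90 to -0.17, adjusted p = 0.381), and CDK1 by -0.36 (-0.72 to -0.01, adjusted p = 0.506). Both differed by library of compound 6, being -0.30 and -0.18 without its replicate 1 and -0.75 and -0.55 without its replicate 2. These intervals do not show that compounds 4 and 6 act alike: for CCNB1 the interval was -0.56 to 0.08 and for CCNB2 -0.42 to 0.10. Without a filter on low counts CCNA2 passed at an adjusted p of 0.0154.

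Between compounds 5 and 4, which differ in the bridge and in the groups on the rings, 1 of 9 genes passed, with 7.04% of all tested genes called lower and 6.91% higher. CCND3 was lower with compound 5 by a log2 difference of -0.66 (SE 0.17, 95% interval -1.04 to -0.29, edgeR adjusted p = 0.0303). Its 8.34 and 8.64 CPM in the compound 5 libraries did not overlap the 12.1 and 14.7 CPM in the compound 4 libraries. The call was lost with DESeq2 (adjusted p = 0.113), with the 2 groups fitted alone (0.0617), and without either DMSO replicate, compound 4 replicate 2 or either compound 5 replicate (0.0502 to 0.166). For the genes that fell against DMSO, the differences between compounds 5 and 4 were 0.25 for CCNA2, 0.19 for CCNB1, 0.15 for CCNB2 and 0.17 for CDK1, and none passed.

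Between compounds 5 and 6 none of the 9 genes passed with edgeR or DESeq2, and 9.91% of all tested genes were called at an edgeR adjusted p under 0.05. At an unadjusted p under 0.05 there was 1 of the 9, CCNE1, and the share of all genes at that threshold was not counted. CCNE1 was at -0.32 (95% interval -0.62 to -0.03, edgeR adjusted p = 0.148) with compound 5 relative to compound 6, and at -0.34 (-0.63 to -0.05, adjusted p = 0.109) relative to compound 4. CCNB1 and CCNB2 were close to 0 between compounds 5 and 6, at -0.05 (-0.37 to 0.26) and -0.01 (-0.27 to 0.24).

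**Figure D4:**
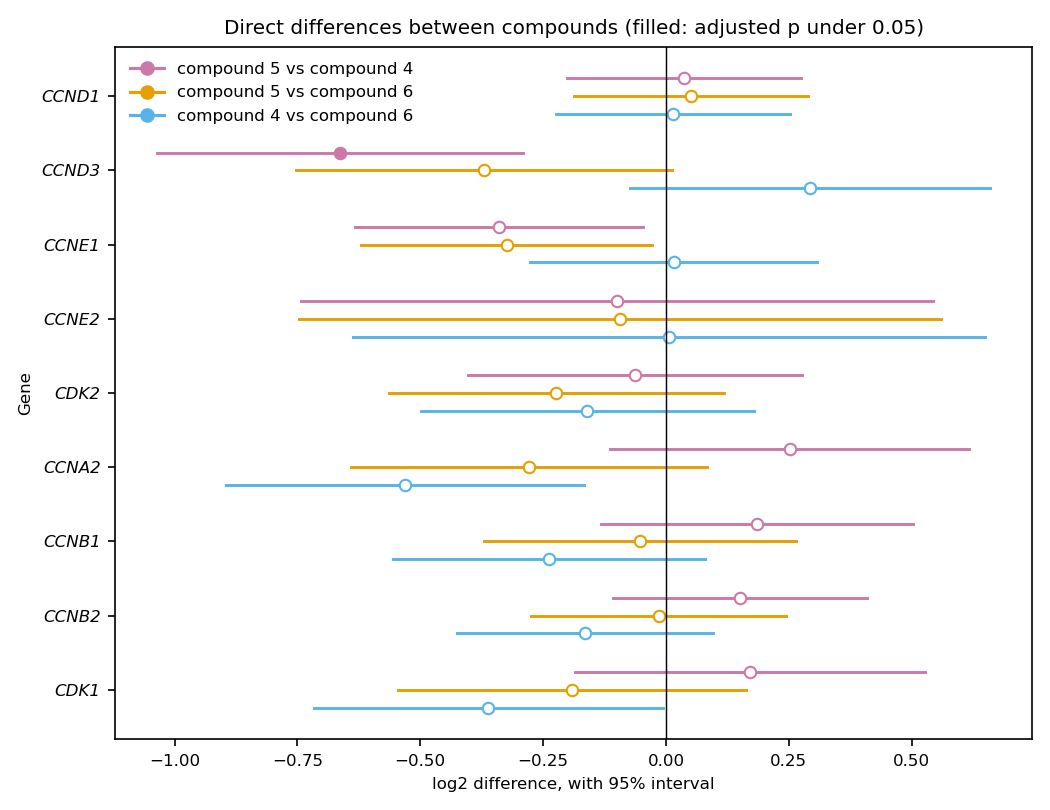
Direct log2 differences between compounds for the 9 tested genes, with 95% intervals; the filled point marks an edgeR adjusted p under 0.05. CCND3 between compounds 5 and 4 is the filled point, and most intervals cross 0.

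The wider set of genes that control cyclins and CDKs was described from 6 lists of 68 genes, of which 64 were tested. With compound 4, 1 rose and 21 fell; with compound 5, 4 rose and 20 fell; with compound 6, 1 rose and 8 fell. The shares that fell were 32.8%, 31.2% and 12.5%, where 5.42%, 14.2% and 1.6% of all tested genes fell. The shares that rose were 1.56%, 6.25% and 1.56%, below the 6.5%, 13.9% and 2.8% of all tested genes. Their median log2 fold change was -0.24, -0.11 and -0.17 in that order. These counts rested on the libraries kept: they were 9, 11 and 0 called in either direction without DMSO replicate 1, 7, 9 and 0 without DMSO replicate 2, 7 and 10 for compound 5 without its replicate 1 or 2, and 22 and 0 for compound 6 without its replicate 1 or 2. For compound 6, 16 were called without either compound 4 replicate. With any 1 of the 8 libraries left out, 7 of the calls with compound 4 (CDKN3, CCNF, CDC25C, PLK1, GTSE1, E2F7 and FOXM1), 5 of those with compound 5 (CDKN2B, CDKN3, CDC25C, GTSE1 and E2F7) and 0 of those with compound 6 held throughout.

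CDK inhibitors bind CDKs or their cyclin complexes and block them. Of 8, 7 were tested, and with compounds 4, 5 and 6 there were 1, 1 and 1 that rose and 2, 2 and 1 that fell. The shares that rose were 14.3% each, where 6.5%, 13.9% and 2.8% of all tested genes rose, and the shares that fell were 28.6%, 28.6% and 14.3%, where 5.42%, 14.2% and 1.6% fell. Without either DMSO replicate 1 call remained for compound 4 and 0 for compound 6, and 0 remained for compound 6 without its replicate 2. CDKN2B (p15), an inhibitor of CDK4 and CDK6, rose with every compound, from 0.689 and 0.658 CPM in DMSO, which were 7 and 8 counts, to 2.65 and 3.20 CPM in the compound 4 libraries, 5.22 and 3.61 CPM in the compound 5 libraries, and 2.40 and 3.38 CPM in the compound 6 libraries. Its log2 fold changes were 2.11 (SE 0.40, edgeR adjusted p = 0.00790), 2.69 (SE 0.38, adjusted p = 8.19e-04) and 2.10 (SE 0.40, adjusted p = 0.0189). It was the highest change among the 64 genes for each compound, from a low level. The call with compound 5 held with any library left out. The call with compound 4 was lost without either DMSO replicate (adjusted p up to 0.0834), and that with compound 6 without either DMSO replicate or compound 6 replicate 2 (up to 0.212).

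CDKN1A (p21), the inhibitor induced by p53, had 61.3 and 57.0 CPM in DMSO, 73.5 and 78.1 CPM in the compound 4 libraries, 54.2 and 60.6 CPM in the compound 5 libraries, and 71.2 and 69.9 CPM in the compound 6 libraries. The compound 4 and 6 libraries lay above DMSO and those of compound 5 overlapped it, and none passed the test (edgeR adjusted p = 0.0532, 0.801 and 0.215). CDKN3, a phosphatase that removes the activating phosphate of CDKs, is counted among the inhibitors but fell with the mitotic cyclins. It was at 23.6 and 21.6 CPM in DMSO and 9.97 to 13.3 CPM with the compounds, with log2 fold changes of -1.01, -1.17 and -0.85 (adjusted p = 0.00214, 5.04e-04 and 0.0141). CDKN2C (p18) fell with compounds 4 and 5 (-0.95 and -1.22) and was at -0.97 with compound 6 (adjusted p = 0.0687). With a replicate block its call with compound 4 was lost (adjusted p = 0.0590).

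The kinases of G1 are CDK4 and CDK6, and the CDK-activating kinase (CDK7 with CCNH and MNAT1) phosphorylates them and CDK1. Of these and CDK3, none of 6 passed with any compound in edgeR or in DESeq2, none had an unadjusted p under 0.05 with all libraries, and the medians were -0.07, -0.11 and -0.06. Of all tested genes 6.5%, 13.9% and 2.8% rose and 5.42%, 14.2% and 1.6% fell, so that 0 of 6 does not set these genes apart. CDK4 was at 207 and 192 CPM in DMSO and 171 to 208 CPM with the compounds, with log2 fold changes of -0.05, -0.16 and -0.04. CDK6 was at 108 and 129 CPM in DMSO and 75.5 to 117 CPM with the compounds. With 1 library left out, CDK6 passed with compound 4 without compound 4 replicate 1 (adjusted p = 0.0124) and CDK3 without compound 4 replicate 2 (adjusted p = 0.0435).

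Among 14 other cyclins, 11 were tested, and CCNA1, CCNB3 and CCNO were too low. With compounds 4, 5 and 6 there were 0, 18.2% and 0 that rose, where 6.5%, 13.9% and 2.8% of all tested genes rose, and 18.2%, 9.09% and 9.09% that fell, where 5.42%, 14.2% and 1.6% fell. CCNF, the F-box cyclin of G2, fell with every compound, from 67.2 and 69.5 CPM in the control libraries to 38.6 and 37.8, 48.9 and 50.9, and 48.2 and 41.2 CPM with compounds 4, 5 and 6 (log2 fold change -0.84, -0.45 and -0.62). CCNG2, a cyclin linked to cell cycle exit, fell with compound 4 (-0.68, edgeR adjusted p = 0.0350). CCNT1, the cyclin of the transcription elongation kinase CDK9, and CCNJ rose with compound 5 (0.51 and 0.48, adjusted p = 0.0224 and 0.0337). The call of CCNF with compound 4 held with any library left out, and that with compound 6 was lost without either DMSO replicate or compound 6 replicate 2. The calls with compound 5 rested on few libraries. Of these 3, 0 remained without DMSO replicate 1 or without either compound 5 replicate, and 1 without DMSO replicate 2, whereas 7 genes were called with only the 2 groups compared. CCNG2 was lost without either DMSO replicate, compound 4 replicate 1 or either compound 5 replicate, and with all libraries kept it was lost with DESeq2 (adjusted p = 0.151) and with only the 2 groups compared (0.0645). CCNT1 did not pass with library size alone (adjusted p = 0.0579), nor CCNJ with that (0.0796), with upper-quartile scaling (0.0620) or with DESeq2 (0.0521). For compounds 4, 5 and 6 the medians of the list were -0.13, 0.29 and 0.04.

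Of the phosphatases and kinases that switch CDK1 on or off, with the CKS subunits, 6 of 10 fell with compound 4, 6 with compound 5 and 3 with compound 6, and none rose. These were 60%, 60% and 30% of the list, where 5.42%, 14.2% and 1.6% of all tested genes fell. The count was 3 for compound 4 without either DMSO replicate or compound 4 replicate 1, and 3 for compound 5 without DMSO replicate 2 or either compound 5 replicate. For compound 6 it was 0 without either DMSO replicate or compound 6 replicate 2, 6 without compound 6 replicate 1, and 5 with DESeq2 or without either compound 4 replicate. Polo-like kinase PLK1 went from 176 and 171 CPM in the control libraries to 83.4 and 88.5, 107 and 121, and 117 and 91.6 CPM with compounds 4, 5 and 6 (log2 fold change -1.01, -0.60 and -0.73). The CDK1-activating phosphatase CDC25C went from 24.8 and 23.9 CPM to between 10.7 and 15.1 CPM in the treated libraries (-1.13, -0.92 and -0.77). GTSE1, a microtubule-associated protein of G2 and S phase, fell by 0.97, 0.75 and 0.71. BORA, which helps to activate PLK1, fell with compounds 4 and 5 (-0.81 and -0.58) and was at -0.45 with compound 6 (edgeR adjusted p = 0.198). Its call with compound 5 was lost with DESeq2 (adjusted p = 0.161).

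Ubiquitin ligase genes that set cyclin and inhibitor turnover mostly did not pass, with 3 of 12 lower and none higher for compound 4, 3 lower and 1 higher for compound 5, and 1 lower for compound 6. The shares lower were 25%, 25% and 8.33%, where 5.42%, 14.2% and 1.6% of all tested genes fell, and with compound 5 8.33% were higher, where 13.9% of all tested genes rose. The 4 calls with compound 5 became 1 without either DMSO replicate, 0 without compound 5 replicate 1 and 2 without its replicate 2. The 3 with compound 4 became 0 without DMSO replicate 2. SKP2, the F-box protein that marks CDK inhibitors for destruction, fell from 69.7 and 78.4 CPM in the control libraries to 34.9 and 37.7, 36.7 and 45.8, and 47.6 and 33.4 CPM (log2 fold change -1.03, -0.84 and -0.88, edgeR adjusted p = 0.00366, 0.00457 and 0.0189). CDC20, the activator of the anaphase-promoting complex, and FBXO5, its inhibitor, fell with compounds 4 and 5 (-0.83 and -0.55 for CDC20, -0.83 and -0.78 for FBXO5). AMBRA1, the adaptor that directs D-type cyclins to degradation, rose with compound 5 (0.45, adjusted p = 0.0194), a call lost with library size alone (0.0536).

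Of 18 transcription factors and pocket proteins that control cyclin genes, 8 fell with compound 4, 8 with compound 5 and 2 with compound 6, and none rose. These were 44.4%, 44.4% and 11.1% of the list, where 5.42%, 14.2% and 1.6% of all tested genes fell. Without either DMSO replicate 2 remained for compound 4 and 0 for compound 6. For compound 5 it was 3 without DMSO replicate 1 and 2 without DMSO replicate 2 or either compound 5 replicate. The counts were also 4 for compound 4 without its replicate 2, 5 without either compound 5 replicate, and 8 and 0 for compound 6 without its replicate 1 or 2. E2F7, a repressor of E2F targets, fell with each compound, from 12.8 and 12.7 CPM in the control libraries to 4.36 and 4.37, 5.77 and 3.93, and 7.72 and 5.11 CPM (log2 fold change -1.55, -1.41 and -1.01). FOXM1, the activator of G2/M genes, went from 91.2 and 94.3 CPM to 49.5 and 39.2 CPM in the compound 4 libraries and 63.6 and 46.2 CPM in the compound 6 libraries (-1.07 and -0.76). With compound 5 it was at 69.3 and 69.2 CPM (-0.42, edgeR adjusted p = 0.0629). MYBL2, the B-Myb subunit that joins the MuvB complex in S phase, and TFDP2, a dimer partner of E2F, fell with compounds 4 and 5 (-0.80 and -0.46 for MYBL2, -0.51 and -0.38 for TFDP2). With compound 5, MYBL2 did not pass with RLE scaling (adjusted p = 0.0589) or a replicate block (0.0616), nor TFDP2 with DESeq2 (0.0995) or without a filter on low counts (0.0753). With DESeq2, E2F7 did not pass with compound 6 (adjusted p = 0.0643).

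**Figure D5:**
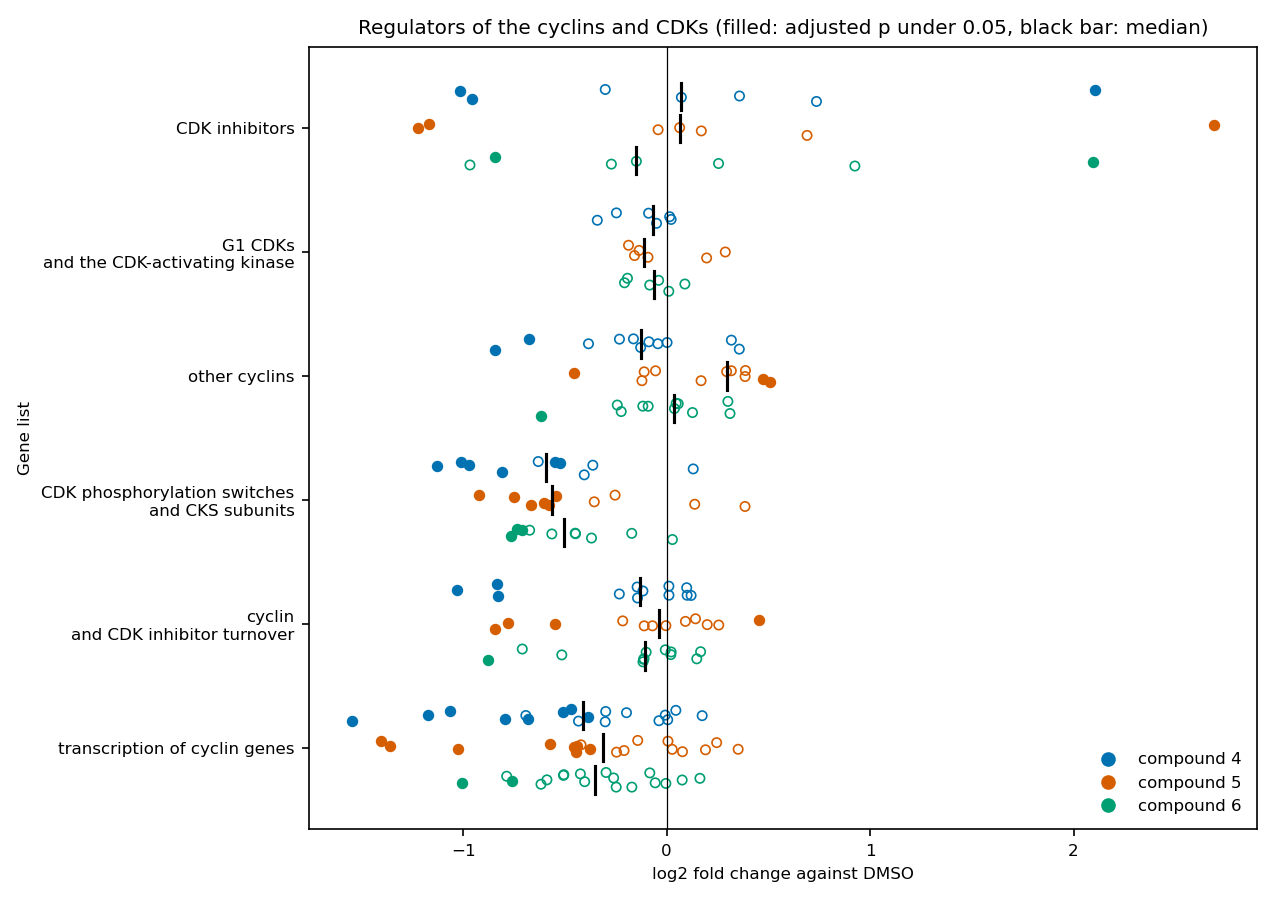
log2 fold change against DMSO of the 64 tested genes of the 6 lists, a row of points for each compound, with filled points at an edgeR adjusted p under 0.05 and black bars at the list medians. The list of CDK phosphorylation switches has medians between -0.59 and -0.51, the G1 CDKs lie near 0, and CDKN2B stands apart above 2.

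Markers used to score proliferating cells were described beside the cyclins. All 6 markers fell with compound 4, 4 fell with compound 5 and 3 with compound 6, where 5.42%, 14.2% and 1.6% of all tested genes fell. TOP2A, the DNA topoisomerase of dividing cells, went from 469 and 536 CPM in the control libraries to 183 and 180, 293 and 316, and 335 and 245 CPM with compounds 4, 5 and 6 (log2 fold change -1.47, -0.72 and -0.79). MKI67 had widely spaced replicates, 185 and 271 CPM in DMSO and 127 and 61.9 CPM in the compound 4 libraries, and fell with compound 4 (-1.28, edgeR adjusted p = 0.0159). PCNA, the sliding clamp of DNA replication, fell with compounds 4 and 5 (-0.67 and -1.09) and was at -0.68 with compound 6 (adjusted p = 0.0569).

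The genes outside these lists whose log2 CPM over the 8 libraries was most like that of CCNB1 were STMN1, which encodes the microtubule-destabilising protein stathmin, KPNA2, an importin, and ARL6IP1 (Pearson r = 0.996, 0.996 and 0.992). Those most like CCND1 were FAM222B, TCAF1 and CEMIP2 (r = 0.975, 0.973 and 0.972). They were searched among 10457 genes that averaged 5 CPM or more, and the 8 points share the DMSO against treated division of the libraries, so the values describe likeness only.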

How the data were processed

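Per the labels and the methods of the study, polyadenylated RNA of 8 samples was sequenced from a directional library, and the labels mark replicate 1 of compounds 4 and 5 as merged from a pair of numbered samples each. The authors checked reads with FastQC 0.12.0, estimated transcript abundance with Salmon 1.5.0 on a GENCODE transcriptome and used tximeta to summarise it by gene. The deposited table holds expected counts (estimated counts per gene, given as whole numbers and not scaled), and the authors used DESeq2 1.38.3 on them. Reads that fit several transcripts were divided by the estimator, so genes with shared sequence are less certain. The shared words counted above include both strands, which a directional library can tell apart, so those shares may overstate the uncertainty.

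The counts were fitted here with edgeR 4.0.16 under R 4.3.3 (filterByExpr, TMM, glmQLFit and glmQLFTest on 4 groups in 1 fit over all 8 samples, limma 3.58.1 loaded with it). Calls were made at a Benjamini-Hochberg adjusted p under 0.05 over 13404 genes, and adjusted p-values come from edgeR where no tool is given. Alternatives were DESeq2 1.42.0, RLE, upper-quartile and library-size scaling, no filter, at least 10 counts in every sample, a replicate block, the 2 groups compared alone, an adjusted p under 0.01, and each sample left out. On simulated counts, 200 genes averaging at least 1 CPM were shifted up or down by a log2 value of 1, alike in every compound. For compound 4 against DMSO, 77.5% were recovered over 13211 to 13228 genes tested, and 7.21% of calls were false. Fewer genes changed there than were called in the data, so these rates hold for that setting only. Correlations of same-numbered deviations from the group means lay between -0.0878 and 0.133. Such weak values over all genes cannot show that an effect of day shared by the groups was absent, and the main fit had no block. No pair of replicates agreed within sampling noise. Symbols and coordinates came from GENCODE 29 on GRCh38, and promoters from RefSeq on GRCh38.p14.

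The genes, lists and tests were chosen with earlier results of these data known. Named were the 10 cyclins and CDKs, the called genes of each list up to the 4 with the smallest p, CDKN1A, CDK4, CDK6, MKI67, TOP2A and PCNA, and the 3 genes most like CCND1 and CCNB1. Flow cytometry, comet assay and docking data were not analysed here.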

Additional observations from a re-analysis of the deposited data

How the results depend on the processing

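The falls of CCNA2, CCNB1, CCNB2 and CDK1 with compounds 4 and 5 kept their direction under every alternative that was run, and the count of genes called was 4 to 5 with compound 4 and 4 to 6 with compound 5 when all libraries were kept. With a replicate left out it was 4 to 5 with compound 4, 3 to 5 with compound 5, 0 to 5 with compound 6, 0 to 1 between compounds 5 and 4 and 0 in the other pairs, where the lone sample is assumed to vary like the other groups. At an adjusted p under 0.01, 0 of the genes were called with compound 6 and 0 between compounds 5 and 4, which was also 0 with DESeq2 and with only the 2 groups compared. Between compounds 4 and 6, 1 gene was called without a filter on low counts. Of the 64 list genes, 22, 24 and 9 were called with compounds 4, 5 and 6, and 11, 10 and 0 at an adjusted p under 0.01. With compound 6, 19 were called without a filter and 15 with only the 2 groups compared. With a replicate left out, the list counts were 7 to 24, 7 to 29 and 0 to 22. The replicate block gave 4, 5 and 3 of the 9 genes called with compounds 4, 5 and 6, and it changed no other call of these genes than that of CCNA2 with compound 6. Among the list genes the block lost the calls of CDKN2C, CDC25A, CKS2 and RB1 with compound 4 and of MYBL2 with compound 5 (edgeR adjusted p = 0.0542 to 0.0616). Library size alone moved the median of all genes by -0.10 with compound 5.

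Changes of sign occurred in uncalled differences near 0. They were -0.0280 (upper-quartile) and -0.0287 (library size) for CCND1 between compounds 5 and 4, -0.0289 and -0.0271 between compounds 5 and 6 (same order) and -0.0009879 between compounds 4 and 6 (upper-quartile). CCNE1 with compound 4 was at -0.0130 (upper-quartile) and -0.0337 (library size), and with compound 6 at 0.003472 (at least 10 counts). CCNE2 between compounds 4 and 6 was at -0.0100 (DESeq2), -0.007793 (upper-quartile), -0.006934 (library size) and -0.002971 (at least 10 counts). CCNB2 between compounds 5 and 6 was at 0.01477 (DESeq2), 0.007037 (RLE) and 0.01125 (no filter). The cause was not tested.

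With a replicate left out, uncalled differences that changed sign spanned these ranges. CCND1 spanned -0.0579 to 0.15 between compounds 5 and 4, -0.0212 to 0.13 between 5 and 6, and -0.10 to 0.12 between 4 and 6. CCND3 spanned -0.0427 to 0.22 with compound 6 against DMSO. CCNE1 spanned -0.0715 to 0.0919 with compound 4, -0.10 to 0.12 with compound 6, and -0.10 to 0.12 between 4 and 6. CCNE2 spanned -0.45 to 0.0119 with compound 4, -0.65 to 0.12 with compound 6, -0.21 to 0.0168 between 5 and 4, -0.44 to 0.33 between 5 and 6, and -0.36 to 0.41 between 4 and 6. CDK2 spanned -0.44 to 0.0423 between 5 and 6 and -0.40 to 0.0874 between 4 and 6. CCNB1, CCNB2 and CDK1 between 5 and 6 spanned -0.22 to 0.15, -0.13 to 0.12 and -0.36 to 0.0117.

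With 2 replicates a group and 24 h as the only stated exposure, the depth allowed no statement on CCND2 and only wide intervals for CCNE2.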
